A study of Mus musculus with 8 samples.

Results

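The sequences described here were annotated to a RefSeq mRNA, were 24 to 33 nt long and mapped to at least 2 positions of the genome. A script took every line of the deposited list whose annotation began with the mRNA prefix NM_, whose length lay in that window and whose map number (MAPNUM, the number of genomic positions to which the sequence mapped) was 2 or more. There were 12836 such sequences, called members below. They formed 1.62% of the 793803 mRNA-annotated sequences of that length, the other 780967 having MAPNUM 1, and 0.2055% of the 6246223 distinct sequences in all.

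The list came from small RNA of mouse testes, size selected to 19 to 33 nt. It was deposited once for a series of 8 libraries, 1 in each of 8 groups: testes heterozygous or homozygous for a Tdrd6 knockout at 18 days, 25 days or 6 weeks after birth, and embryonic testes heterozygous or homozygous for a Tdrd1 knockout at 18.5 days after conception. Each group had at least 1 mutant allele, and none was labelled wild type. No sequence was tied to a library, so genotypes and ages could not be compared, the knockouts and the tissue could not be checked against marker genes, and the depth of each library was unknown. The values below count different sequences and not reads, so they do not measure how abundant an RNA was. There were no replicates, no test was run, and intervals are exact 95% (Clopper-Pearson) intervals that cover counting error only. Members that overlap on 1 transcript share their source and are not independent.

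Piwi proteins of male germ cells bind small RNAs of this length, the piRNAs, which usually begin with U (T in these sequences). When a Piwi protein cuts a target RNA, the cut RNA can become a piRNA whose first bases pair with the first 10 bases of the guide. A guide that begins with U then leaves A at position 10 of the new piRNA, a pattern known as ping-pong. Tdrd1 and Tdrd6 encode Tudor-domain proteins that bind methylated arginines of Piwi proteins. A sequence that maps to several positions can come from any of them: from a paralog, from a processed pseudogene (a copy of an mRNA reinserted into the genome) or from a tandem array. The accession attached to it names only 1 of these candidates.

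For the 5 accessions with most members, the sequence of at most 30 nt with the highest MAPNUM is printed 5' to 3', to show what a shared stretch looks like. Where several tied, the first in alphabetical order was taken, which favours A as first base. Capitals mark the first base and position 10, the bases on which the account turns.
H4c11: TgatccgcgAcgccgtcacctacac
Ddx19a: AagatagaaAgactggacacagatgatttg
H3c10: AagtcgaccGagctgctgatccgcaa
Tagap1: AaaataaagAattggacccaaggtttagca
Zfp280b: TagagtgacTagaaatgtcccctgctt
The H4c11 and H3c10 sequences each had MAPNUM 12 and matched exons at exactly 12 genomic positions in GENCODE release M21 (mouse genome GRCm38), against which all members were matched exactly on both strands. The Ddx19a and Tagap1 sequences had MAPNUM 3 and were found at 2 exon positions each. The Zfp280b sequence also had MAPNUM 3 and was found at 1. The H4c11 and Zfp280b sequences had T first, and the other 3 had A. Because of the order in which ties were settled, these first bases do not represent the accessions. T was first in 69.6% of the Ddx19a, 54.0% of the H3c10 and 78.7% of the Tagap1 members. Position 10 was A in 3 of the 5.

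Members lay on 1742 of the 16813 mRNA accessions with sequences of this length, and were concentrated on few of them. Of these accessions 762 had 1 member, the median was 2, 273 had at least 10 and 46 at least 50. The first 15 held 2544 members (19.8%), and 92 held 50% of them. In 162 accessions every mRNA sequence of piRNA length was a member, among them 21 with at least 10. The 15 accessions with most members belonged to 5 histone genes, a ribosomal protein gene, 4 genes with a close paralog and 5 genes most of whose members matched no second gene's exon in sense.

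Most members had the smallest MAPNUM that the rule admits. MAPNUM was 2 in 8674 members (67.6%), 3 to 5 in 2236 (17.4%), 6 to 10 in 711 (5.54%), 11 to 100 in 1202 (9.36%) and above 100 in 13 (0.101%). The median was 2, the 90th percentile 10 and the maximum 263. Histones, which exist in large gene clusters, gave 4.83% of the members with MAPNUM 2 and 9.93% at 3 to 5. They gave 53.0% at 6 to 10 and 55.7% at 11 to 100, but none above 100. The 5 members with the highest MAPNUM came from 2 accessions, Daw1, a gene for the assembly of ciliary dynein, and Rsph3a, a gene for a radial spoke protein of cilia and sperm tails. They are printed because they mark the upper end of the range.
Daw1: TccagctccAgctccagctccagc
Daw1: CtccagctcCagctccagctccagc
Rsph3a: TgcagtcagAaccacacacgcccact
Rsph3a: TgcagtcagAaccacacacgcccactg
Rsph3a: TcagaaccaCacacgcccactgcagtc
The Daw1 sequences, runs of 1 short motif, had MAPNUM 263 and 262 and were found at 16 and 15 exon positions. The Rsph3a sequences had MAPNUM 199, 198 and 175 and matched no annotated exon.

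**Figure D1:**
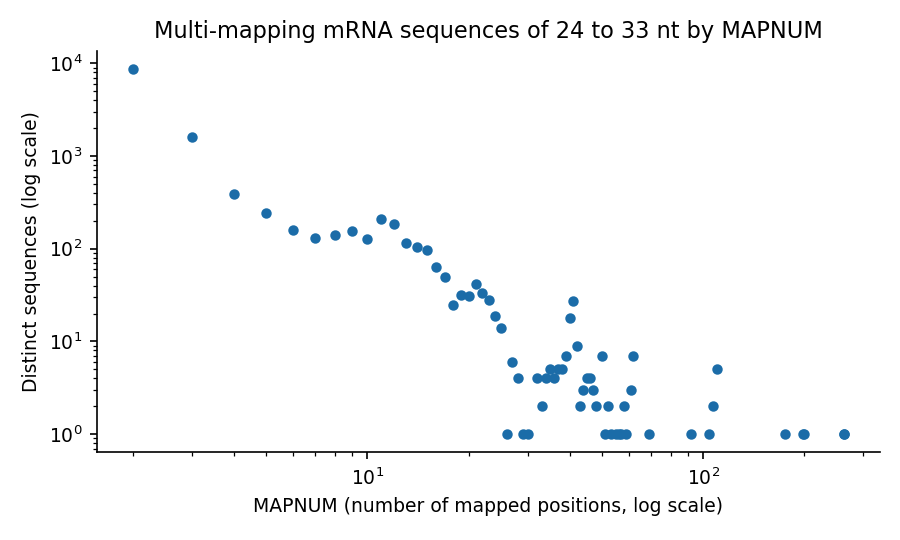
Number of members (vertical axis, log scale) at each MAPNUM (horizontal axis, log scale). The points fall from 8674 sequences at MAPNUM 2, flatten between about 6 and 12, and end at 263. Histones gave 53.0% of the members at 6 to 10 and 55.7% at 11 to 100.

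For 54.1% of the members, annotated exons accounted for as many positions as MAPNUM. Of the members, 10703 (83.4%) matched at least 1 exon on either strand and 2133 (16.6%) matched none. The number of exon positions equalled MAPNUM in 6946, was lower in 3664 and was higher in 93 (0.725%). The build behind MAPNUM is not given in the sources used here, and introns and intergenic DNA were not searched. The copies were of several kinds. The named gene together with another protein-coding gene in sense matched 3873 members (30.2%). The named gene and a pseudogene, with no other coding gene in sense, matched 2057 (16.03%). Over all kinds, 2911 members (22.7%) matched a pseudogene. The named gene at 1 position only, with no further copy found in annotated exons, matched 2902 (22.6%). Only the antisense strand of the named gene was matched by 711 (5.54%), and only other genes by 673 (5.24%).

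Near and distant copies differed in what the second copy was. Of the MAPNUM 2 members, 4562 had both positions in exons. In 2291 (50.2%) both lay on 1 chromosome, 1869 of them within 1 Mb, and 8.16% of these 2291 matched a pseudogene. In 2271 (49.8%) they lay on different chromosomes, and 83.6% of these matched a pseudogene.

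Histone genes were the largest group of members. They encode the proteins around which DNA is wrapped, and the replication-dependent ones are near-identical, clustered and without introns. Of 72 histone accessions in the list, 38 held 1688 members, 13.2% of all, and 33.5% of the histone sequences were members. Every mapped position could be found in an exon for 95.4% of them. By class there were 567 H2B, 393 H4, 354 H2A, 301 H3 and 73 H1 members. The median MAPNUM was 12 for H2A, 11 for H2B, 9 for H4, 8 for H3 and 3 for H1, the linker histone, whose genes differ more from each other.

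The H4 accession H4c11 (NM_178210, chromosome 13, 21735034 to 21735456 on GRCm38) led the whole list. It had 275 members among its 283 sequences (97.2%), with MAPNUM 2 to 12 and a median of 9. They matched the sense strand of 13 coding genes. The gene itself, Hist1h4j in GENCODE, matched 274, Hist1h4k 227 and Hist1h4b 222, but Hist2h4 on chromosome 3 only 16. On the transcript, 241 members began in the coding sequence and 33 before it. The H3 accession H3c10 (NM_178206, chromosome 13, 21717628 to 21718115) had 215 members of 230, and they matched 12 coding genes. Hist1h3h, its GENCODE name, matched 211, and 3 H3 genes on chromosome 3 matched 91 each. The H2B accessions H2bc15 (NM_178201) and H2bc14 (NM_178200) had 168 members of 185 and 145 of 188. The H2A accession H2ac13 (NM_178182) had 133 of 141, with MAPNUM up to 22, and 130 of these also matched a pseudogene. These 3 genes lie on chromosome 13 as well. Another H2B accession, H2bu2 (NM_030082, chromosome 11), had 111 of 118 (94.1%). Which of the matched genes gave a sequence cannot be told apart.

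Ribosomal protein genes, which have many processed pseudogenes, gave 571 members from 27 of 92 accessions. This was 16.04% of their sequences, and 80.4% of the members matched a pseudogene. Rpl14 (NM_025974, chromosome 9, 120571517 to 120574653), a protein of the large ribosomal subunit, had 169 members of 185 sequences. All 169 matched the sense strand of Rpl14 and began in its coding sequence, and 164 also matched the pseudogene Rpl14-ps1 (chromosome 7, 45324965 to 45325617, plus strand). Rps16, of the small subunit, had 69 members of 79, and 36 matched Rps16-ps2 on chromosome 5. Rpl22l1 had 60 of 81, with 55 in a pseudogene. No member of Rpl14, Rps16 or Rpl22l1 had a 10-nt partner in its own accession. All members of these genes matched their gene in sense, so such an opposite-strand partner was hardly possible.

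Other housekeeping genes known for processed pseudogenes gave 200 members from 15 of 34 accessions, and 50.5% of these matched a pseudogene. Ran, the GTPase of nuclear transport, had 65 members of 86 sequences, with 28 in a pseudogene. The chaperone gene Hsp90aa1 had 57 of 84, with 40 in a pseudogene. Eef2, a translation elongation factor, had 26 of 146, with 24 in a pseudogene. Eef2 thus had the larger number of sequences but the smaller share of members.

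A further group consisted of genes with 1 or a few coding paralogs on the same chromosome. Ddx19a (NM_007916, chromosome 8, 110974991 to 110997823), an RNA helicase of mRNA export, had 240 members of 264 sequences. They matched the sense strand of Ddx19a in 236 cases and of its paralog Ddx19b in 235. The pair Tuba3a and Tuba3b encodes testis alpha-tubulin, and all 127 members of Tuba3a (NM_009446) matched both genes, which lie on chromosome 6. Kbtbd7 (NM_001024135, chromosome 14), a Kelch-type adaptor of a ubiquitin ligase, had 121 members of 157. Of these, 112 matched the sense strand of Kbtbd7 and of Kbtbd6, and 9 matched the antisense strand of both. Tagap1 (NM_147155, chromosome 17), a GTPase-activating protein gene, had 188 members of 221, of which 161 also matched Tagap. Its median MAPNUM was 3, and only 4.79% of its members had every copy in an exon. The heat shock gene Hspa1b had 92 members of 100 (92.0%), and 86 matched both Hspa1a and Hspa1b in sense.

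Some accessions had members whose other copy was not found in an annotated exon. Zfp280b (NM_177475, chromosome 10, 76032401 to 76042970), a zinc finger gene, had 188 members of 976 sequences, all in sense. Of these, 177 began in the 3' untranslated region, and 11 matched a further exon, in the pseudogene Gm15968 on chromosome 19. All 134 members of Spata2 (NM_170756, chromosome 2; 721 sequences) matched Spata2 in sense and no other exon. Rrp7a (NM_029101, chromosome 15), a gene of ribosomal RNA processing, had 177 members of 268. The pseudogene Gm3436 matched 46 of them, and 125 began in the 3' untranslated region. Cntnap2 (NM_001004357, chromosome 6), a neurexin family gene, had 117 members of 202, and 116 matched no exon. T was first in 89.7% (82.8 to 94.6) of the Cntnap2 members.

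Multicopy families other than histones held fewer members in number, but not all of them by share. The X and Y multicopy testis genes had 180, from 26 of 46 accessions, and 40.2% of their sequences were members. The share was 33.5% for histones and 1.62% for all mRNA sequences of this length. Rhox4a and Rhox2e, homeobox genes of an X-linked cluster expressed in the testis, had 49 of 53 and 43 of 44. Ssxb9, also on this list, had 15 of 53. The zinc finger genes had 397 members from 49 of 345 accessions, or 2.57% of their sequences, and 188 of these were those of Zfp280b. Zfp36l2 followed with 36 and Zfp747 with 35. The autosomal multicopy genes had 132 members from 58 of 257 accessions, or 4.82% of their sequences. Among them Vmn2r99, a vomeronasal receptor gene, had 12 and Sult1c1, a sulfotransferase gene, had 10. The list made for the piRNA pathway had 13 members from 2 of 19 accessions, or 0.571% of its sequences. Of these, 11 came from the 782 sequences of Ago2, an Argonaute gene outside the Piwi group. The list value therefore says little about piRNA pathway genes.

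Among sequences that could be placed on a transcript, members began in the coding sequence more often than other sequences of the same accessions. Of the members that matched the sense strand of the linked transcript, 65.2% (64.3 to 66.2) began in the coding sequence, which made up 52.1% of the length of these transcripts, each weighted by its members. The 3' untranslated region held 29.3% of the members and 40.01% of the length. For MAPNUM 1 sequences of the same accessions the coding share was 42.4% (42.0 to 42.8), against 43.5% of the length. For histone members the coding share was 90.7% against 68.1% of the length, and for the other members 60.1% against 48.9%. Only 9173 of 12429 members and 63215 of 136109 MAPNUM 1 sequences could be placed this way, so the placed shares of the groups differ, and copies in introns or intergenic DNA are not represented.

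T was the first base of most members, but less often than among MAPNUM 1 sequences. The share was 73.0% (72.2 to 73.8) against 78.5% (78.4 to 78.6). Histone members had T first in 51.4% (49.0 to 53.8), below histone sequences with MAPNUM 1 at 65.5% (63.8 to 67.1). The other members had 76.3% (75.5 to 77.1) against 78.6% (78.5 to 78.7), so the gap was smaller without histones. MAPNUM 1 sequences of the accessions that held members had 76.985%. By class the histone members had T first in 80.8% for H1, 58.1% for H3, 177 of 354 for H2A, 49.4% for H4 and 46.4% for H2B. H1 was the only class above its own MAPNUM 1 share, which was 65.9%. The lowest share among the 15 leading accessions was 35.2% (27.4 to 43.5), in H2bc14.

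Among histones T was first less often at high MAPNUM. The histone share was 58.5% (53.6 to 63.2) at MAPNUM 2, 63.5% (56.8 to 69.9) at 3 to 5, 50.1% (44.97 to 55.3) at 6 to 10 and 43.7% (39.9 to 47.6) at 11 to 100. Among other accessions it was 76.0%, 77.9%, 76.3% and 74.1% in the same classes, with overlapping intervals. That overlap rested on 5 accessions with tandem arrays, described further on. Without them the shares were 76.1% (75.2 to 77.03), 77.9% (76.1 to 79.7) and 77.6% (72.5 to 82.1), and then T was first in 217 of 310 (64.6% to 75.05%) at 11 to 100, below the intervals at MAPNUM 2 and at 3 to 5. Within 85 accessions that had at least 20 members and at least 20 sequences of MAPNUM 1, T was more frequent among the members in 47 and less frequent in 38. The median difference was 1.03 percentage points, with quartiles of -6.96 and 9.40.

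**Figure D2:**
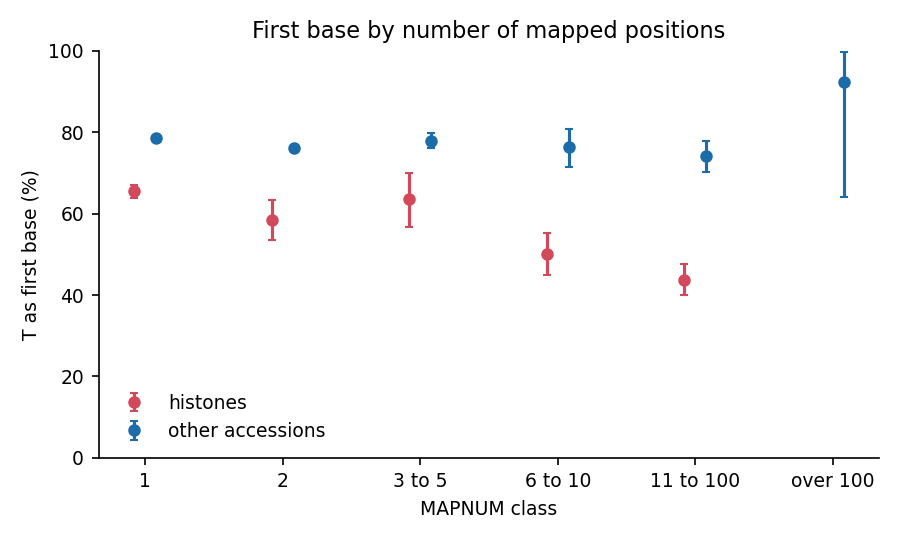
Share of sequences with T as first base (vertical axis, %) by MAPNUM class (horizontal axis), for histone and other accessions; bars are 95% intervals. Histones fall from 65.5% at MAPNUM 1 to 43.7% at 11 to 100, while the other accessions, tandem arrays included, stay between 74.1% and 78.6% up to MAPNUM 100.

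At the edges of the rule the values were as follows. Just outside it, MAPNUM 1 sequences had T first in 78.5%, and just inside, MAPNUM 2 and MAPNUM 3 sequences had 75.2% and 76.3%. At 24 nt there were 780 members with 63.8% T first, and at 23 nt 560 multi-mapping mRNA sequences with 52.7%. At 33 nt there were 59 with 50.8%, and at 34 nt 22 with 68.2%. The most frequent length was 26 nt, in 23.4% of members and 22.9% of MAPNUM 1 sequences. Mean lengths were 27.03 and 27.16 nt. Members had 9878 distinct 5' ends (first 20 nt), or 1.30 sequences per end against 1.20 for MAPNUM 1.

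A at position 10 was little more frequent among members than among other mRNA sequences. It was found in 26.6% (25.8 to 27.4) of members and 25.8% (25.7 to 25.9) of MAPNUM 1 sequences. In members A stood at positions 9 and 11 in 23.9% and 24.3%, and at positions 12 and 13 in 27.1% and 26.5%, so position 10 did not stand above all its neighbours. Members beginning with T had A at position 10 in 25.96% (25.1 to 26.9) and those beginning with another base in 28.3% (26.8 to 29.9). The same order held for MAPNUM 1, with 25.2% and 28.0%. Histone members had the opposite order, with 29.1% (26.1 to 32.3) after T and 21.5% (18.7 to 24.4) after another base. Within the 85 accessions the share was higher among members in 42 and lower in 43. Among non-histone members it was 26.6%, 25.5% and 26.9% in the classes up to MAPNUM 10 and 33.8% (29.8 to 38.0) at 11 to 100, and above 100 it was 7 of 13. Without the 5 accessions with tandem arrays described below, it was 31.9% (26.8 to 37.4) at 11 to 100.

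Among the 15 leading accessions, Tatdn1 stood apart at position 10. A was found there in 54.4% of its 147 members, against 21.4% to 34.04% in the other 14. Its share of T as first base, 78.2% (70.7 to 84.6), was within the range of the others.

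**Figure D3:**
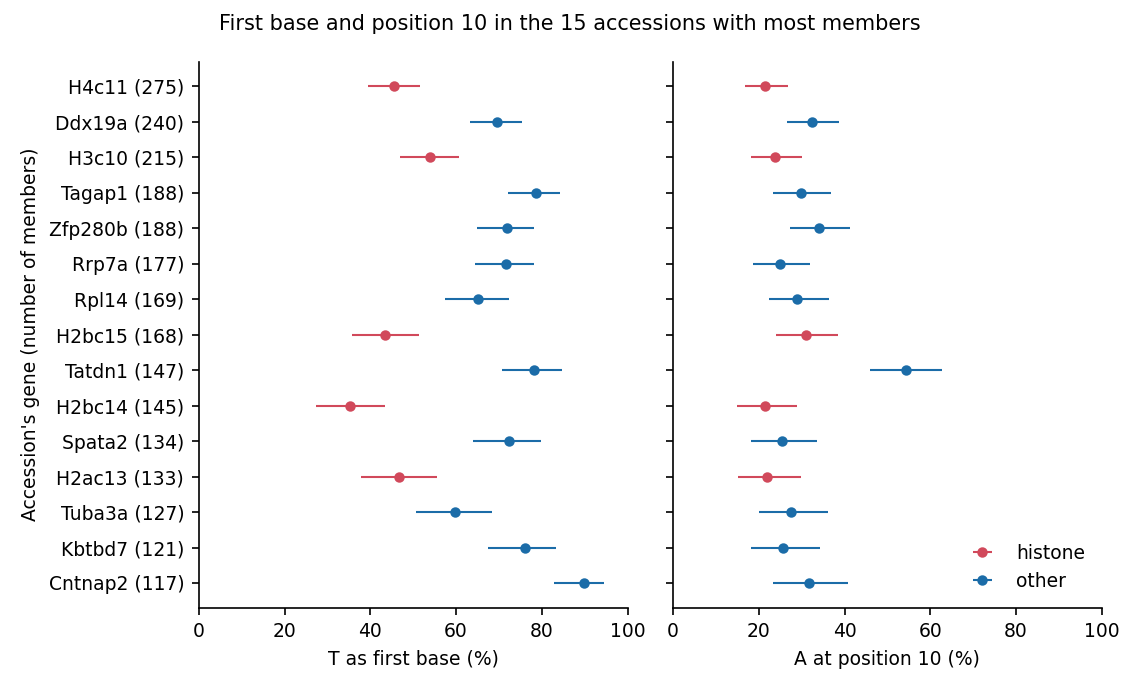
Share of members with T as first base (left) and with A at position 10 (right) in the 15 accessions with most members, with 95% intervals. The 5 histone accessions lie between 35.2% and 54.0% for T, and Tatdn1 lies at 54.4% for A at position 10.

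Partners on the opposite strand were sought by sequence. A 5' end had a partner at an overlap when the last 10 bases of that overlap, reverse complemented, equalled the first 10 bases of another 5' end. Overlaps of 11 to 20 nt gave the background. Among members of any accession, 409 of 9878 ends (4.14%, 3.76 to 4.55) had a partner at 10 nt, against a mean of 3.03% (SD 0.0727 over 10 overlaps) and a highest value of 3.14% at the others. The ratio was 1.36. Restricted to partners in the same accession, 156 of 9917 pairs of accession and end (1.57%, 1.34 to 1.84) had one, against 0.825% (SD 0.125) and at most 1.04%, a ratio of 1.91. MAPNUM 1 sequences gave 1.03% against 0.538%, a ratio of 1.90 from 653123 ends. The higher share of the members at 10 nt rested on the 5 accessions with tandem arrays described below. Without these the members had 0.976% (0.791 to 1.19) at 10 nt, an interval that holds the MAPNUM 1 value. The mean at the other overlaps was 0.543%, a ratio of 1.80. Members and MAPNUM 1 sequences differ in the number of possible partners per accession, so their shares are not on an equal footing. When all mRNA sequences of piRNA length served as partners for the members, the values were 40.8% (39.9 to 41.8) and 38.99%, and the highest other overlap reached 40.7%, within that interval.

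The 156 ends with a partner in their accession came from 36 accessions. Tatdn1 had 29 of its 59 ends, Pvr 20 of 68, St6galnac5 10 of 18, Gm13271 8 of 31, and the histone genes H2ac18 and H2bu2 6 each, of 47 and 60. Gm13271 had 34 members, of which 14 matched the sense and 17 the antisense strand of its exons, and A stood at position 10 in 17 of them. Histone members together had partners at 40 of 925 ends (4.32%, 3.11 to 5.84), against a mean of 1.71% (SD 0.534) and at most 2.59%. None of the 129 ends of H4c11 had one. Since 274 of its 275 members matched the gene in sense, opposite-strand partners were hardly possible there. Outside histones and the tandem arrays described next, 55 of 8804 ends had a partner (0.625%, 0.471 to 0.812). At 11 to 20 nt the mean was 0.420%, but the highest value was 0.613%, within that interval.

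**Figure D4:**
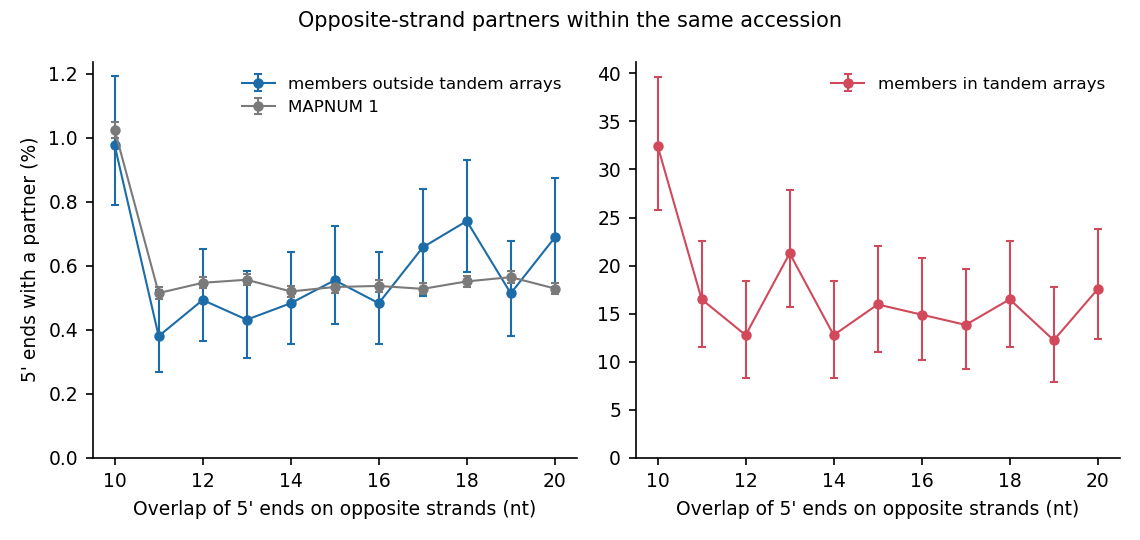
Share of 5' ends with an opposite-strand partner in the same accession (vertical axis, %) by overlap (horizontal axis, nt), with 95% intervals; left, members outside tandem arrays and MAPNUM 1 sequences, right, members of the 5 tandem array accessions on a different scale. The value at 10 nt is the highest in each set, 0.976%, 1.03% and 32.4%.

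In 5 accessions overlapping members closed into a circle of sequence, as a tandem repeat would give. These held 368 members (2.87%) and 61 of the 156 ends with a partner (39.1%). Motifs shorter than the 20 nt required of a unit, such as that of Daw1, were not counted as arrays. Sets without the 5 accessions are therefore not free of repeats. Of the 188 ends in these accessions, 32.4% (25.8 to 39.6) had a partner at 10 nt, against a mean of 15.4% (SD 2.76) and at most 21.3% at the other overlaps. The other accessions together had 0.976% (0.791 to 1.19) against 0.543%, with at most 0.740%. All members of the 5 accessions are counted here, although 64 of the 104 Pvr members were assigned to neither strand of its unit. The repeated units of 4 of the accessions are printed in lower case, as the circles into which overlapping members closed. Each starts at the 5' end with most placed members on the strand that held more members.
St6galnac5: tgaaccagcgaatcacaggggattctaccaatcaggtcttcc
Prim2: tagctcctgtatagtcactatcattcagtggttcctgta
Pvr: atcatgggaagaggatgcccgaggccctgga
Rsrc1: tgagcacgtggggagtggactatgccc
These units were 42, 39, 31 and 27 nt long, and that of Tatdn1 43 nt. No member of Tatdn1, St6galnac5, Prim2 or Rsrc1 matched an exon of any gene. The strand that each accession's transcripts take was not assigned, so strands are given as the one with more members and the other.

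Both strands were represented in 4 of the 5 arrays, and to different degrees. In Tatdn1 (NM_175151, chromosome 15), which encodes a TatD-type nuclease, 129 members lay on 1 strand and 18 on the other, with a median MAPNUM of 24 and a maximum of 42. T was first in 82.2% of the 129 and in 9 of the 18. A stood at position 10 in 48.1% of the 129 and in all 18. In St6galnac5 (NM_012028, chromosome 3), a sialyltransferase gene, 12 and 11 members lay on the strands, T was first in 9 and 7 of them, and A stood at position 10 in 5 and 5. In Prim2 (NM_008922, chromosome 1), a subunit of DNA primase, 60 of 63 members lay on 1 strand and none on the other, with 3 not assigned. T was first in 87.3% of the Prim2 members, A stood at position 10 in 7.94%, and none of 29 ends had a partner. Rsrc1 (NM_025822, chromosome 3), a splicing-related gene, had 27 members on 1 strand and 3 on the other, T first in 93.3%, A at position 10 in 3 of all 30 and a partner at 2 of 14 ends. In Pvr the array members numbered 24 on 1 strand and 16 on the other, with T first in 9 and 13 and A at position 10 in 12 and 3. Prim2 and Rsrc1 thus had the most frequent T and the rarest A at position 10 of the 5 accessions. Tatdn1 and St6galnac5, with partners at 49.2% and 55.6% of their ends, had A at position 10 in 54.4% and 45.8% of members.

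Tatdn1 was the accession with most ends that had a partner. On its unit, the strand with more members had 8 sequences beginning at position 6 and 7 at position 30, and the other strand had 4 each at positions 15 and 39, the positions at which a 10-nt overlap with those ends places them. The position with most sequences, 1 with 13, had only 1 sequence at its matching position 10. Positions 3 and 36, with 8 each, had 1 each at the matching positions 12 and 2. Of the 147 members, 41 shared at least 20 consecutive bases with sequences that the deposited list annotates to the repeat MTA_Mm, a long terminal repeat of the MaLR group. The other 4 arrays had 1 such member in all, in Rsrc1, with the repeat L2b.

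**Figure D5:**
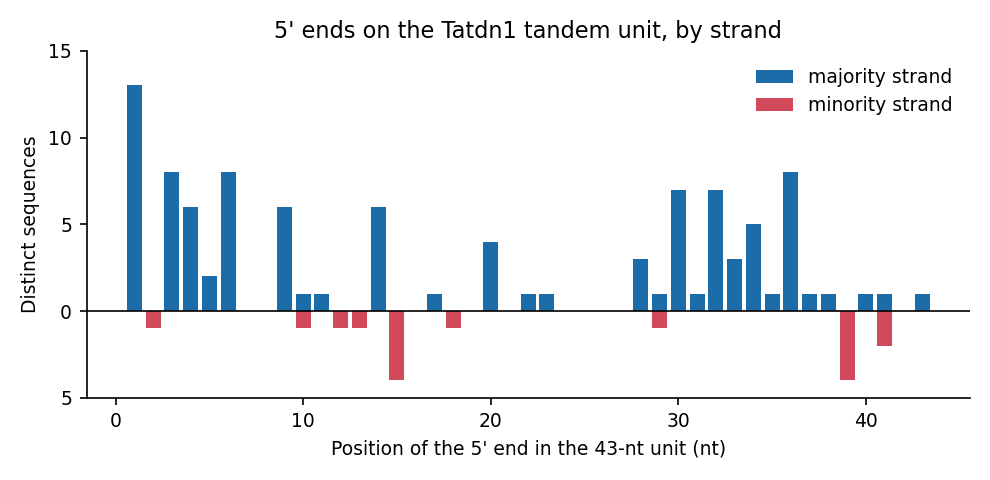
Number of Tatdn1 members whose 5' end lies at each position of the 43-nt unit (horizontal axis, nt, arbitrary start), upward for the strand with more members and downward for the other. Members that differ from the unit at the 5' end are not placed; the downward bars at 15 and 39 hold 4 sequences each, and the upward bars at 6 and 30 hold 8 and 7.

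Pairs of members that overlap by 10 nt at their 5' ends are printed for St6galnac5 and Pvr, with the paired bases in capitals. They were chosen after their values were seen, as the array accessions that followed Tatdn1 in the number of ends with a partner.
St6galnac5 pair 1, end 1: TGGTTCAGGAagacctgattggtaga
St6galnac5 pair 1, end 2: TCCTGAACCAgcgaatcacaggggattc
Pvr pair 1, end 1: TGATTCCAGGgcctcgggcatcct
Pvr pair 1, end 2: CCTGGAATCAtgggaagaggatgcccg
The St6galnac5 sequences had MAPNUM 13 and 4, and both begin with T and have A at position 10. The Pvr sequences had MAPNUM 12 and 11. Of these, the first begins with T and the second has A at position 10.

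Pvr (NM_027514, chromosome 7, 19903578 to 19921143), a cell adhesion gene, held 2 kinds of members under 1 accession. Of its 104 members, 58 matched a pair of processed pseudogenes, and the other 46 did not. The pseudogenes are Gm16184 (chromosome 7, 19911825 to 19912397, plus strand), which lies within the Pvr gene on its opposite strand, and Gm15570 (chromosome 7, 27271768 to 27272392, minus strand). These pseudogenes also matched 7 and 10 of the Rpl14 members. The sense strand of Gm16184 matched 36 members and its antisense strand 22. Partners at 10 nt were found for 6 of the 41 ends in pseudogene exons and for 14 of the 27 other ends. T was first in 56.9% of the pseudogene members and 60.9% of the others. A stood at position 10 in 36.2% and 34.8%. None of the 104 matched an exon of Pvr itself on either strand.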

How the data were processed

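For a series of 8 small RNA libraries of mouse testes, the authors deposited 1 table of distinct sequences, and which of the libraries it pools is not stated. Per the file headers it gives for each sequence its map number (a count of mapped positions) and a final annotation. Aligner, build and annotation order are not given in the sources used here. Its columns named no library, and 0 columns of other samples were present.

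Members were selected by annotation prefix, length and MAPNUM. Gene symbols came from the RefSeq table (GRCm38.p6), which named 1686 of the 1742 accessions, and 1692 were linked to GENCODE M21 genes. Members were matched exactly to 141767 spliced transcripts on both strands, and each match was converted to a genomic position. Tandem units were the shortest closed chains of overlapping 20-nt words of an accession's members, at least 20 nt long. Shares have exact (Clopper-Pearson) intervals. Python 3.11.15, pandas 2.3.3, numpy 2.4.6, scipy 1.17.1 and matplotlib 3.10.9 were used, and the functions were tested on simulated data.

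The accessions named are the 15 with most members, up to 3 per gene list with at least 10 members, up to 5 with the highest share of members among those with at least 100 sequences, and those of the 5 highest MAPNUM. Genes named for partners, arrays or paralogs beyond these were chosen after their values were seen. Partner pairs and the unit of the accession with most partners are not reported here as sequences. The 7 gene lists and the members were chosen with earlier results of these data known. Alternatives were other length and MAPNUM limits, the 5' end as unit, other partner lists, and leaving out single groups of accessions.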

Additional observations from a re-analysis of the deposited data

How the results depend on the processing

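No paired analysis was possible because the table names no library, and for the same reason no replicate could be left out. T as first base, 73.0% over all members, was 75.2% at MAPNUM exactly 2, 68.5% at MAPNUM 3 or more, 69.8% with each 5' end counted once and 76.3% without histone accessions. The partner ratio (10 nt over the mean of 11 to 20 nt), 1.36 with members of any accession, was 1.91 with partners of the same accession only, 1.80 of these without the tandem arrays, 1.95 with all mRNA sequences of the same accession and 1.05 with all mRNA sequences of piRNA length. These alternatives for the ratio change the list of possible partners by construction. Otherwise the cause was not tested. The other 22 alternative values moved by less than their intervals or by less than 1.5 times, among them all 7 for A at position 10. Alternatives that leave out histones or arrays, use all mRNA of the same accession, or match members of 25 to 32 nt were added after the data were seen. Counts of distinct sequences give no abundance, and with few members per accession the intervals are wide.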
